A study of Mus musculus with 26 samples.

Results

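Skeletal muscle growth is restrained by secreted ligands of the TGF-beta superfamily, and 9 of their genes were followed here through muscle regeneration and through myoblast differentiation with and without METTL3. The 9 genes were 6 ligands (Mstn, Gdf11, Inhba, Tgfb1, Tgfb2 and Tgfb3), the ligand trap Fst and the receptors Acvr2b and Tgfbr2. They were taken by symbol from both deposited expression tables, in which all 9 were listed, among 53465 genes in the muscle table and 55487 genes in the C2C12 table. The series holds 26 RNA-seq libraries, of which 18 were analysed here, and the 8 libraries of Mettl3-overexpressing and GFP control myoblasts were not analysed here. Tibialis anterior (TA) muscle of C57BL/6J mice, described in the study's methods as 6-week-old males given 25 μL of 10 μM cardiotoxin (CTX), was sequenced on days 0, 1, 3, 5 and 10, with 2 libraries per day. CTX, from snake venom, kills muscle fibres, and the muscle then rebuilds from its stem cells. Day 0 is the label's name for the reference group, and whether it was untouched muscle or muscle given saline, the control that the methods name, is not settled by the sources used here. C2C12 cells, a mouse myoblast line that fuses into myotubes when serum is lowered, were sequenced with a control construct or with the construct labelled Cas9M3. The Cas9M3 cells carried a lentiviral vector for dCas9-KRAB, a catalytically dead Cas9 fused to a transcriptional repressor, with guides against the promoter of Mettl3, the gene of the enzyme that writes m6A on RNA. The methods describe puromycin-selected stable cells and a knockdown, whereas the design text says knockout, and the sources used here do not say which guide was in the sequenced cells. Both kinds of cell were taken in growth medium (GM, 10% serum) and on day 3 in differentiation medium (DM3, 2% horse serum), with 2 libraries in each of the 4 groups. A general statement in the methods asks for independent biological samples, 3 or more, in every experiment, whereas each group here has 2 libraries, and what the 2 libraries of a group were taken from is not described. Every p-value here therefore measures the spread between these libraries, which may be technical.

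The ligands are made as precursors, cleaved by proteases and secreted as dimers. Myostatin (Mstn) and GDF11 (Gdf11) are close relatives, and like activin A, the dimer of the Inhba product, they bind the type II receptor ACVR2B (Acvr2b) and signal through SMAD2 and SMAD3. The TGF-beta ligands (Tgfb1, Tgfb2 and Tgfb3) are held latent in the matrix until released, bind the type II receptor TGFBR2 (Tgfbr2) and use the same SMADs. Follistatin (Fst) binds activin, myostatin and GDF11 outside the cell and keeps them from their receptors. Myostatin is known as a brake on muscle size that is made mainly by muscle fibres, and TGF-beta is known to drive matrix deposition by fibroblasts and to hold back myoblast fusion.

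The promoters of 3 ligands that behaved differently in these tables are shown because the results turn on these genes. Of the 9 members, 7 had a RefSeq promoter sequence in the reference table (build GRCm38.p6), and Fst and Tgfb3 had no entry. Each sequence has 300 bases, 250 before the annotated start and 50 after it, read 5′ to 3′ on the strand of the gene. Capitals mark the E-box CANNTG, the core motif of MyoD-family factors, and TATAAA. Both motifs were searched on both strands. The form CAGCTG counts as an E-box too, and it occurred in none of the sequences printed here.
Mstn, chr1:53061390-53061689, plus strand: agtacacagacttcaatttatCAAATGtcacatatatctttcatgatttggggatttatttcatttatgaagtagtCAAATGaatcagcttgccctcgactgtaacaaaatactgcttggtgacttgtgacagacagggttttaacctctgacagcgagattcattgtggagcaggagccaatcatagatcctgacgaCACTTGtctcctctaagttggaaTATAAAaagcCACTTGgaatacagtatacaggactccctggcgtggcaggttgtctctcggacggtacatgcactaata
Tgfb1, chr7:25686752-25687051, plus strand: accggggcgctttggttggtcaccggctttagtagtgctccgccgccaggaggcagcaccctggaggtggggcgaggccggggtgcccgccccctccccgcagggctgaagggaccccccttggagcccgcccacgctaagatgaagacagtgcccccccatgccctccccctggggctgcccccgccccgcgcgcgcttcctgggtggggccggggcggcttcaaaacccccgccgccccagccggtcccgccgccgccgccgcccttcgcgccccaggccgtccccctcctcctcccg
Tgfb2, chr1:186705940-186706239, minus strand: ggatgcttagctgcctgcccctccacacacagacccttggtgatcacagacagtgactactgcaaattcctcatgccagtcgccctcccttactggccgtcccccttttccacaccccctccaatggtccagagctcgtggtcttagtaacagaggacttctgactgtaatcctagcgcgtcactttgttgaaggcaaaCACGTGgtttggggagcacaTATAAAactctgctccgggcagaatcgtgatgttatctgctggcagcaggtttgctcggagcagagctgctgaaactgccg
The Mstn window held 4 E-boxes and 1 TATAAA at 41.3% GC, and the Tgfb2 window held 1 E-box and 1 TATAAA at 54.3% GC. The Tgfb1 window held neither motif at 77% GC. Of the members not printed, Gdf11 had 1 E-box, which was of the form CAGCTG, and 1 TATAAA, and Inhba had 1 TATAAA without an E-box. Tgfbr2 had 1 E-box of the form CAGCTG and no TATAAA, and Acvr2b had neither motif. Among all 32851 promoter windows of that length, 72.3% held an E-box, 16.3% held CAGCTG and 13.6% held TATAAA, so an E-box in a window is the usual case. The letters describe the windows and do not show that any factor bound there.

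In GRCm38 with GENCODE M21, Mstn lies on chromosome 1 from 53061640 to 53068079, Tgfb1 on chromosome 7 from 25687002 to 25705077 and Tgfb2 on chromosome 1 from 186622792 to 186705989. Tgfb3 lies on chromosome 12 from 86056745 to 86079041, Gdf11 on chromosome 10 from 128882295 to 128891718 and Inhba on chromosome 13 from 16011851 to 16031621. Fst lies on chromosome 13 from 114452290 to 114458951, Acvr2b on chromosome 9 from 119402118 to 119434995 and Tgfbr2 on chromosome 9 from 116084293 to 116175360. Exons of Tgfb2, Tgfb3 and Fst overlap genes on the other strand by 124, 420 and 115 bases. How strand was handled in counting is not given in the sources used here, so reads in those overlaps cannot be assigned to either gene.

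Values are the deposited FPKM (fragments per kilobase of gene), so levels can be compared between genes within a library. For the scaling between libraries the study names the fpkm function of DESeq2. The steps between low values imply 14170000 to 18820000 reads on genes per muscle library and 14230000 to 29570000 per C2C12 library. These totals did not set the scale alone. A read on 1 kb was worth 0.0803 FPKM in day 0 replicate 1 (16780000 reads) and 0.0507 FPKM in day 3 replicate 1 (14330000 reads). Some libraries stood apart from the rest. Xist, which is expressed from an inactive X chromosome, reached at least 1 FPKM in both libraries of day 0, both of day 10 and replicate 2 of day 3, 5 of the 10 muscle libraries, which goes against the male mice of the methods. In the C2C12 table, ribosomal RNA repeats took 1.90% to 2.48% of the summed FPKM in the libraries numbered 1 and 19.3% to 57.4% in those numbered 2, with the highest share in control GM replicate 2. The muscle table was refitted with a term for the Xist-expressing libraries, which is estimated from the 2 libraries of day 3 alone, since the libraries of every other day were alike in Xist. With it, 0 of 16753 genes were called on day 1 or day 5 against day 0 and from day 3 to day 5, so that any call in those 3 comparisons was lost there, whereas 34.9% were called on day 3 against day 0. Each library was also left out in turn.

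**Figure D1:**
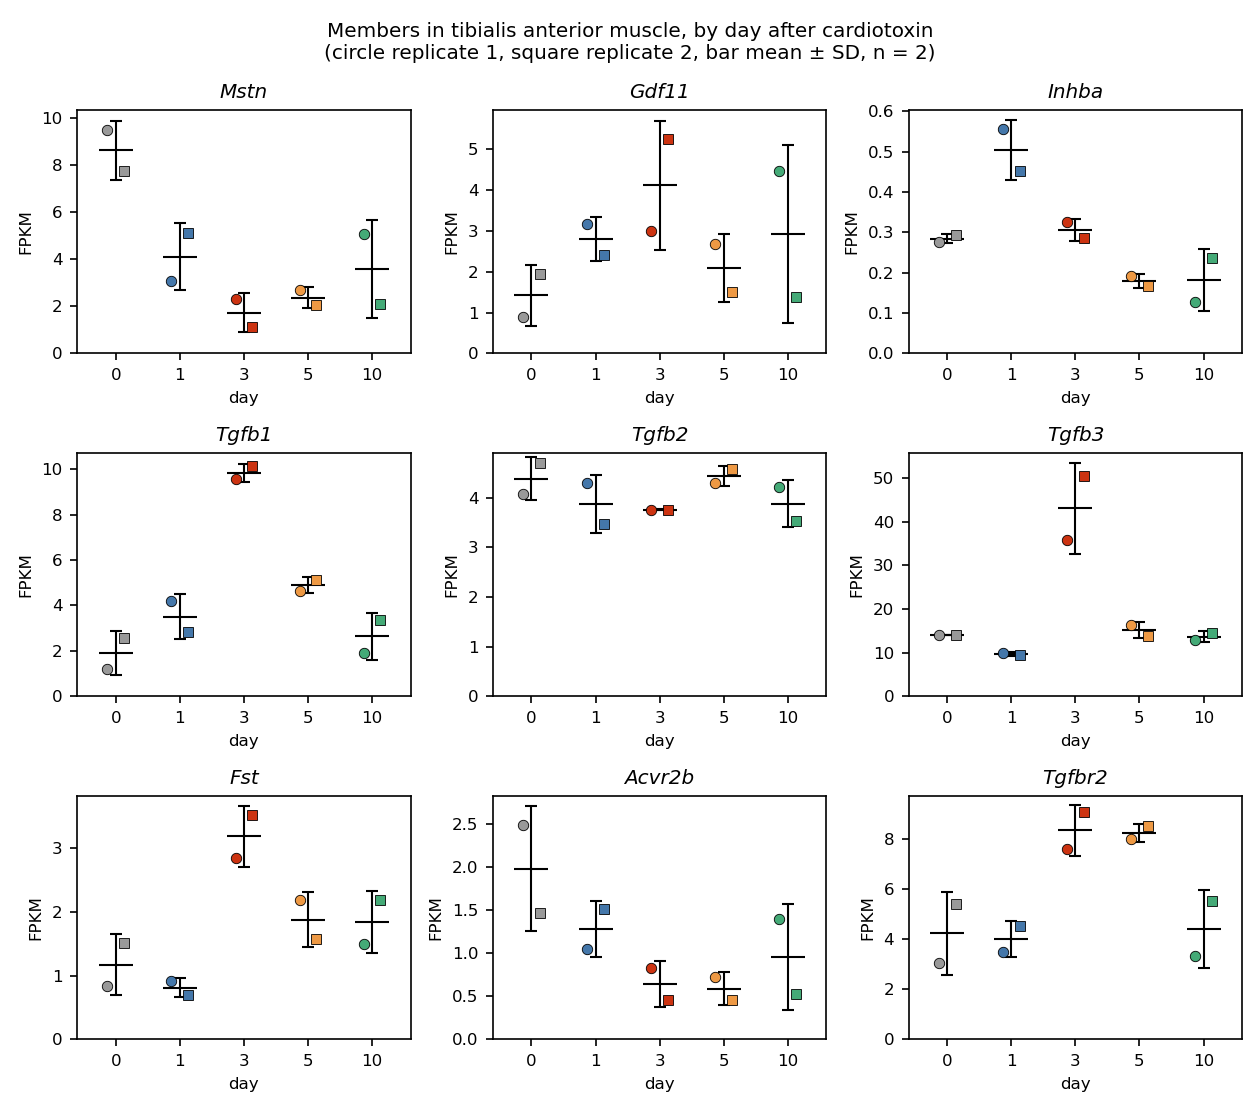
FPKM (vertical axes, each from 0) of the 9 members by day after CTX (horizontal axes) in TA muscle, with circles for replicate 1, squares for replicate 2 and bars for mean ± SD (n = 2). Mstn was highest on day 0 at 9.53 and 7.75 FPKM, while Tgfb1, Tgfb3 and Fst were highest on day 3 in both libraries.

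In regenerating muscle the comparison of days that called the most members was day 3 against day 0, and it also called the most of all genes. On day 3 Tgfb1, Tgfb3, Fst and Tgfbr2 were higher than on day 0, and Mstn and Acvr2b were lower. Of the 9 members, 8 passed the filter of at least 0.5 FPKM in at least 2 libraries, and the exception was Inhba. With limma on log2(FPKM + 0.1) and Benjamini-Hochberg adjustment over the 16753 genes tested, 6 of these 8 passed an adjusted p of 0.05 (called), against 48.8% of all genes tested. Among them 4 were higher, against 24.5% of all genes called higher, and 2 were lower, against 24.3% called lower. Without day 0 replicate 1, or without day 3 replicate 2, 3 of the 8 were called (Mstn, Tgfb1 and Tgfb3), against 32.0% and 31.2% of all genes tested in those fits. With a log2 fold change of at least 2 as well, the threshold of the study, 2 of the 8 were called (Mstn and Tgfb1), against 13.3% of all genes tested. The members' share of calls is to be read against this large number of genes. The libraries of days 0 and 3 did not overlap for 8 of the 8 members, against 77.9% of all genes tested. Between days 0 and 5 the share of all genes was 70.8%, so a lack of overlap between days, given below, is the usual case there. All differences below are on the log2(FPKM + 0.1) scale, which understates the change of low genes.

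Among the ligands, Mstn had 9.53 and 7.75 FPKM on day 0, 3.10 and 5.12 on day 1, followed by 2.32 and 1.13 on day 3. On day 5 it had 2.68 and 2.06 FPKM, and on day 10 it had 5.07 and 2.12. Both day 0 libraries were above every later library, and the later days overlapped with their neighbours in the order of the means (day 0, then day 1, day 10, day 5 and day 3). Mstn fell by 2.33 on day 3 against day 0 (SE 0.47, limma adjusted p = 0.0053) and by 1.83 on day 5 (SE 0.47, limma adjusted p = 0.030). The differences from day 0 were -1.09 on day 1 (limma adjusted p = 0.187) and -1.36 on day 10 (limma adjusted p = 0.433) with a 95% interval of -2.45 to -0.27 on day 10. The lowest library of day 3 rested on 62 reads and the highest library of day 0 on 321. The fall on day 3 was called without any 1 of the 10 libraries, with values of -2.82 to -1.84, whereas that on day 5 was lost without either library of day 0 or of day 5 (limma adjusted p = 0.062 to 0.158).

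The 8 markers of mature fibres, including creatine kinase (Ckm) and skeletal actin (Acta1), summed to 56573 and 50511 FPKM on day 0 and 15892 and 12327 FPKM on day 3, and 8 of 8 were called lower on day 3. On day 5 their sum was 39391 and 39861 FPKM, with 0 of 8 called lower, and on day 10 it was 66513 and 49763 FPKM. The part of fibre content in the Mstn values was not tested. In bulk muscle, fewer cells of a type and less RNA per cell cannot be told apart, here and in the results that follow.

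Tgfb1, the ligand with the widest known roles in inflammation and fibrosis, had 1.21 and 2.57 FPKM on day 0, 4.21 and 2.81 on day 1, followed by 9.55 and 10.1 on day 3. It had 4.65 and 5.13 FPKM on day 5 and 1.90 and 3.37 on day 10. Day 3 was above every other day and day 5 came next. Day 1 was above day 0, and day 10 overlapped with both. Tgfb1 rose by 2.41 on day 3 against day 0 (SE 0.38, limma adjusted p = 0.0020) and by 1.41 on day 5 (SE 0.38, limma adjusted p = 0.034). From day 3 to day 10 it fell by 1.92 (SE 0.38, limma adjusted p = 0.0072). The rise on day 3 was called without any 1 library (1.89 to 2.92), but the rise on day 5 was lost without day 0 replicate 1, either library of day 3 or either library of day 5 (limma adjusted p = 0.055 to 0.188).

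Tgfb3 was the most abundant of the 6 ligands in every muscle library. It had 13.9 and 14.0 FPKM on day 0, 9.97 and 9.36 on day 1, followed by 35.7 and 50.4 on day 3. It had 16.4 and 13.8 FPKM on day 5 and 12.8 and 14.5 on day 10, so that day 3 stood above the other 4 days and day 1 below them. Tgfb3 rose by 1.59 on day 3 against day 0 (SE 0.18, limma adjusted p = 0.00057), and this was called without any 1 library (1.35 to 1.84). It fell by 1.49 from day 3 to day 5 (SE 0.18, limma adjusted p = 0.0062) and by 1.63 from day 3 to day 10 (SE 0.18, limma adjusted p = 0.00087). The fall to day 5 was lost without day 3 replicate 2 (limma adjusted p = 0.052) and without day 5 replicate 2 (limma adjusted p = 0.053).

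Tgfb2 stayed within 3.47 to 4.69 FPKM in all 10 libraries, and no comparison of days called it. Its difference on day 3 against day 0 was -0.22, with a 95% interval of -0.59 to 0.16. Gdf11 had 0.889 and 1.95 FPKM on day 0, 3.18 and 2.42 on day 1, followed by 3.01 and 5.25 on day 3. It had 2.69 and 1.50 FPKM on day 5 and 4.46 and 1.37 on day 10. The 2 libraries of day 10 lay farther apart than the means of any pair of days. Its difference on day 3 was 1.52 (SE 0.60, limma adjusted p = 0.068), and it was called (limma adjusted p = 0.031 or 0.032) when either library of day 10 was left out. Inhba, the activin A gene, was low throughout. It had 0.276 and 0.293 FPKM on day 0, 0.557 and 0.453 on day 1, 0.325 and 0.286 on day 3, 0.192 and 0.167 on day 5, followed by 0.128 and 0.236 on day 10. These values rest on 10 to 51 reads per library, both libraries of day 1 were the highest, and Inhba was left out of the test by the filter.

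Fst, the ligand trap, had 0.833 and 1.51 FPKM on day 0, 0.911 and 0.699 on day 1, followed by 2.85 and 3.53 on day 3. It had 2.18 and 1.58 FPKM on day 5 and 1.50 and 2.19 on day 10. Day 3 was above every other day, and days 5, 10, 0 and 1 overlapped in turn. Fst rose by 1.42 on day 3 against day 0 (SE 0.32, limma adjusted p = 0.0088) and by 1.87 against day 1 (SE 0.32, limma adjusted p = 0.0065). The first of these was lost without day 0 replicate 1 (1.02, limma adjusted p = 0.054) or day 3 replicate 2 (1.27, limma adjusted p = 0.059), and the second without day 3 replicate 2 (1.72, limma adjusted p = 0.054).

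The receptors moved in opposite directions. Acvr2b had 2.49 and 1.47 FPKM on day 0, 1.05 and 1.51 on day 1, followed by 0.825 and 0.453 on day 3. It had 0.719 and 0.452 FPKM on day 5 and 1.39 and 0.518 on day 10, on 27 to 122 reads per library. Days 0 and 3 did not overlap, and Acvr2b fell by 1.49 on day 3 (SE 0.49, limma adjusted p = 0.038). Its difference on day 5 was -1.58 (SE 0.49, limma adjusted p = 0.051).

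Tgfbr2 had 3.04 and 5.40 FPKM on day 0, 3.49 and 4.52 on day 1, followed by 7.61 and 9.06 on day 3. It had 7.97 and 8.49 FPKM on day 5 and 3.30 and 5.51 on day 10. Days 3 and 5 overlapped with each other and were above the other 3 days. Tgfbr2 rose by 1.02 on day 3 against day 0 (SE 0.32, limma adjusted p = 0.032) and by 1.04 against day 1 (SE 0.32, limma adjusted p = 0.042). Its difference on day 5 against day 0 was 1.00 (SE 0.32, limma adjusted p = 0.055). Both receptor calls against day 0 were lost without day 0 replicate 1 and without either library of day 3 or day 5 (limma adjusted p = 0.050 to 0.192). They were lost too with no filter on low values (limma adjusted p = 0.073 for Acvr2b and 0.058 for Tgfbr2) and with a term for the Xist-expressing libraries (limma adjusted p = 0.055 for Acvr2b and 0.077 for Tgfbr2). With that term the day 3 calls of Mstn, Tgfb1, Tgfb3 and Fst held. The rise of Tgfbr2 against day 1 was lost without either library of day 1, 3 or 5 (limma adjusted p = 0.066 to 0.189).

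Markers of other cell types also differed between days, and the lists did not all change in the same direction. The 10 macrophage and monocyte markers summed to 51.3 and 103 FPKM on day 0, 1636 and 1598 FPKM on day 3, 470 and 536 FPKM on day 5, and 76.1 and 281 FPKM on day 10, and 10 of 10 were called higher on day 3. The 7 markers of fibroblasts and fibroadipogenic progenitors summed to 86.7 and 212 FPKM on day 0, 701 and 771 FPKM on day 3 and 821 and 969 FPKM on day 5, with 4 of 7 called higher on day 3. The 6 markers of differentiating myoblasts and new myotubes summed to 38.9 and 54.5 FPKM on day 0 and 1001 and 1503 FPKM on day 3, with 6 of 6 called higher. Of the 6 endothelial markers, which summed to 63.2 and 87.0 FPKM on day 0 and 51.9 and 41.5 FPKM on day 3, 2 were called lower. The 5 satellite cell markers summed to 3.87 and 3.96 FPKM on day 0 and 7.68 and 9.38 FPKM on day 3, and 3 of the 4 tested were called higher. The 6 neutrophil markers summed to at most 19.4 FPKM, with Ly6g under 0.1 FPKM in every library. The part of these cells in the values of Tgfb1, Tgfb3, Fst and Tgfbr2 was not tested.

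The other comparisons of days called fewer members. On day 1 against day 0, 0 of 8 members were called by limma, against 6.00% of all genes tested, and 2 (Tgfb1 at 0.92 and Tgfb3 at -0.53) had an unadjusted p of at most 0.05. On day 5 against day 0, 2 of 8 were called (Mstn and Tgfb1), against 25.5%. On day 10 against day 0, 0 of 8 were called by limma, against 0.00597%, and 1 (Mstn) had an unadjusted p of at most 0.05. From day 1 to day 3, 4 of 8 were called (Tgfb1, Tgfb3, Fst and Tgfbr2), against 31.1%, with a rise of 1.49 for Tgfb1 (SE 0.38, limma adjusted p = 0.024) and 2.12 for Tgfb3 (SE 0.18, limma adjusted p = 0.0018). The rise of Tgfb1 from day 1 was lost without day 1 replicate 2 or either library of day 3 (limma adjusted p = 0.083 to 0.114). From day 3 to day 5, 1 of 8 was called (Tgfb3), against 12.7%, and from day 3 to day 10, 2 of 8 were called (Tgfb1 and Tgfb3), against 37.9%. With a term for the Xist-expressing libraries, Tgfb3 alone was called from day 1 to day 3 (1.88, limma adjusted p = 0.018), against 8.17% of all genes tested. On day 5 against day 0 or day 3, 0 members and 0 of all genes were called with that term. The number of all genes called on day 5 against day 0 also fell from 4267 to 22 without day 0 replicate 1, to 909 without day 5 replicate 1 and to 19 without day 5 replicate 2. Comparisons that share a day share its libraries, so these counts are not independent.

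Beyond the members, 47 genes of the pathway were listed by role, and 37 of them passed the filter in muscle. On day 3 against day 0, 18 of the 37 were called, 14 higher and 4 lower, a share close to the 48.8% of all genes tested. Their median difference was 0.41, beside 0.0075 over all genes tested. Of the 6 transcriptional targets, 3 were called and all 3 were higher, against 48.8% of all genes called and 24.5% called higher. Tgfbi, a matrix protein induced by TGF-beta, had 2.55 and 3.34 FPKM on day 0 and 43.6 and 39.0 FPKM on day 3, a rise of 3.77 (SE 0.21, limma adjusted p = 0.00026). It was already higher on day 1, by 3.24 (limma adjusted p = 0.0022), when no member was called. Thbs1, whose product can release latent TGF-beta, rose by 2.10 on day 1 (limma adjusted p = 0.041). With the Xist term, under which 0 genes were called on day 1, Tgfbi had 3.08 (limma adjusted p = 0.354) and Thbs1 2.21 (limma adjusted p = 0.440). Without day 0 replicate 1, or without day 1 replicate 1, 9 and 13 of all genes were called on day 1, and Tgfbi was among them (limma adjusted p = 0.021 and 0.035). The call of Thbs1 was lost without any 1 library of days 0, 1, 3 or 5 (limma adjusted p = 0.056 to 0.209).

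Of the 8 latency and activation genes tested, 4 were called higher on day 3 (Ltbp1, Ltbp2, Thbs1 and Itgav) and 0 lower. The shares of all genes tested were 24.5% called higher and 24.3% called lower. Ltbp2, a latent TGF-beta binding protein of the matrix, had 0.108 and 0.293 FPKM on day 0 and 5.48 and 6.72 FPKM on day 3, a rise of 4.43 (SE 0.41, limma adjusted p = 0.00037). Of the 4 proteases tested, which mature the ligands, 3 were called higher (Furin, Pcsk5 and Bmp1), against the same 24.5% of all genes. Of the genes called lower, Wfikkn2, which encodes a secreted inhibitor of myostatin and GDF11, had 3.96 and 3.35 FPKM on day 0 and 1.20 and 1.52 FPKM on day 3, a fall of 1.36 (SE 0.31, limma adjusted p = 0.0090). Acvr1b, a type I receptor that pairs with ACVR2B, fell by 1.10 (SE 0.25, limma adjusted p = 0.0082), from 12.5 and 12.6 FPKM to 5.48 and 6.15 FPKM. Smad3 fell by 0.80 (SE 0.28, limma adjusted p = 0.047), and Smad4, the SMAD that is shared with the BMP branch, fell by 0.42 (limma adjusted p = 0.040).

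On day 5 against day 0, 11 of 37 pathway genes were called, against 25.5% of all genes tested. Of these, 9 were higher, among them Ltbp2 at 2.55 and Tgfbi at 2.28. The 2 lower ones were Smad3 at -1.61 and Smad4 at -0.61. From day 3 to day 5, 6 were called, against 12.7% of all genes tested. All 6 were lower, among them Ltbp2 at -1.88 and Tgfbi at -1.49. With the Xist term 0 pathway genes, as 0 of all genes, were called in either comparison, with Ltbp2 at 2.84 and Tgfbi at 2.13 on day 5 against day 0 (limma adjusted p = 0.178 and 0.148) and at -1.74 and -1.57 from day 3 to day 5 (limma adjusted p = 0.167 and 0.065). Without 1 library the pathway genes called were 0 to 13 on day 5 against day 0, with 0 without day 0 replicate 1 or day 5 replicate 2 and 2 without day 5 replicate 1. They were 0 to 8 from day 3 to day 5, with 0 or 1 without any 1 library of those days. From day 3 to day 10, 12 were called, against 37.9% of all genes tested. Of these, 10 were lower and 2 higher, with Ltbp2 at -3.64 and Tgfbi at -2.86 among the lower. The 2 higher ones were Inha, the inhibin alpha subunit, at 1.23 and Acvr1b at 0.96. From day 1 to day 3, 9 were called, against 31.1% of all genes tested. Of these, 8 were higher, led by Ltbp1 at 2.73, Ltbp2 at 2.67 and Bmp1 at 1.86, and 1 lower, the inhibitory Smad7 at -0.70. With the Xist term 11 pathway genes were called on day 3 against day 0, 9 from day 3 to day 10 and 3 from day 1 to day 3. The shares of all genes tested were 34.9%, 23.4% and 8.17% in those fits. On day 10 against day 0, 0 of 37 pathway genes were called by limma, against 0.00597% of all genes tested.

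**Figure D2:**
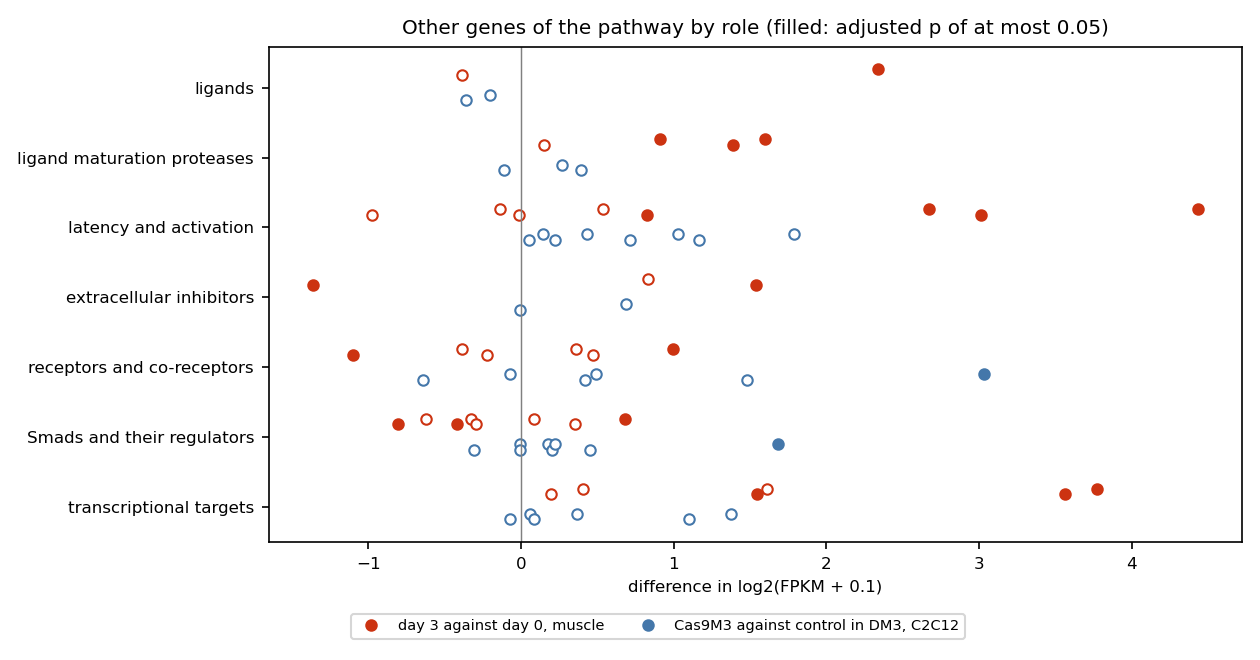
Difference in log2(FPKM + 0.1) (horizontal axis) of the other pathway genes, grouped by role (vertical axis), for day 3 against day 0 in muscle (red) and for Cas9M3 against control in DM3 (blue). Filled points passed an adjusted p of 0.05, and they number 18 of 37 in muscle and 2 of 35 in C2C12 cells, against 48.8% and 1.98% of all genes tested.

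The balance of the 3 TGF-beta ligands was described as the share of each in their summed FPKM. In muscle the sum was 19.2 and 21.3 FPKM on day 0, 18.5 and 15.6 on day 1, followed by 49.0 and 64.3 on day 3. It was 25.3 and 23.5 FPKM on day 5 and 18.9 and 21.4 on day 10, and the day 10 libraries lay on either side of those of day 0. Tgfb3 held 54.0% to 78.4% of the sum in every muscle library. The share of Tgfb2 was lowest on day 3, at 7.68% and 5.83%, against 21.2% and 22.0% on day 0, while its own level stayed within the range given above. The share of Tgfb1 was 6.30% and 12.1% on day 0 and 15.7% to 22.8% on days 1, 3 and 5.

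**Figure D3:**
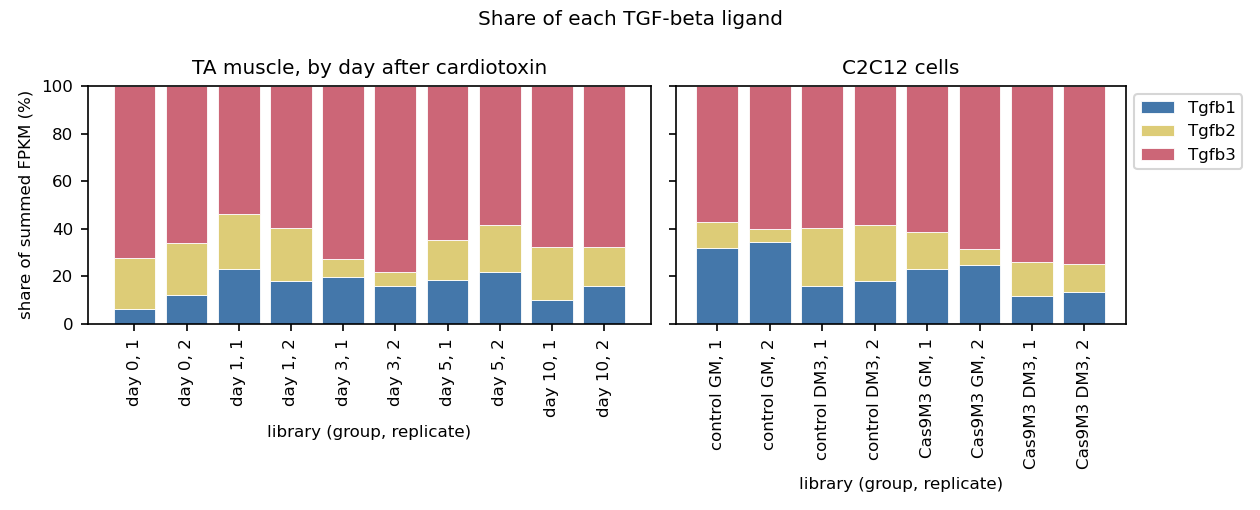
Share of Tgfb1, Tgfb2 and Tgfb3 in their summed FPKM (vertical axis, %, from 0 to 100) in each library (horizontal axis) of TA muscle and C2C12 cells. Tgfb3 was the largest share in all 18 libraries, and Tgfb2 was smallest on day 3 in muscle and largest in control DM3 cells, at 24.4% and 23.6%.

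In C2C12 cells the members were expressed at other levels than in muscle, and the 2 tables were scaled separately, so levels are not compared between them. Mettl3 had 4.70 and 5.65 FPKM in control GM and 4.68 and 5.15 in control DM3 cells. It had 0.331 and 0.118 FPKM in Cas9M3 GM and 0.148 and 0.0805 in Cas9M3 DM3 cells. Cas9M3 and control libraries did not overlap, with a difference of -4.10 in GM (SE 0.40, limma adjusted p = 0.188) and a fall of 4.56 in DM3 (SE 0.40, limma adjusted p = 0.019). Without any 1 of the 4 DM3 libraries 0 genes of the table were called in DM3, Mettl3 included, with differences of -4.80 to -4.33 (limma adjusted p = 0.213 to 0.262). Mettl3 and Tox4, which lie on opposite strands, share 933 exonic bases.

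Of the 10 macrophage markers, which summed to 8.34 to 25.9 FPKM per library, 6 (Adgre1, C1qa, C1qb, Mrc1, Itgam and Ccr2) and 5 of the endothelial markers Pecam1, Cdh5, Kdr, Emcn and Cldn5 were under 0.1 FPKM in all 8 libraries. Of the 5 satellite cell markers, Pax7 and Calcr were under 0.1 FPKM in all 8 libraries, but the list summed to 10.4 to 41.7 FPKM per library. Differentiation markers moved with the groups. Myog, the myogenic factor myogenin, had 89.1 and 83.3 FPKM in control DM3 and 3.50 and 2.28 FPKM in Cas9M3 DM3 cells. Mymk, the fusion protein myomaker, had 199 and 180 FPKM in control DM3 and 4.58 and 3.47 FPKM in Cas9M3 DM3 cells. The 6 markers of differentiating myoblasts summed to 365 and 327 FPKM in control DM3 and 13.5 and 10.4 FPKM in Cas9M3 DM3 cells, with 1 of the 5 tested called lower and Myh8 under 0.1 FPKM in every library. The 8 mature fibre markers summed to 457 and 410 FPKM in control DM3 and 12.9 and 9.89 FPKM in Cas9M3 DM3 cells. The study itself reported the other direction for its knockdown cells on day 3 of differentiation. It found higher levels of genes of myoblast fusion by RT-qPCR, with more myosin heavy chain protein and more fusion. Why these libraries differ from that report was not tested. The part of the degree of differentiation in the values below was not tested.

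**Figure D4:**
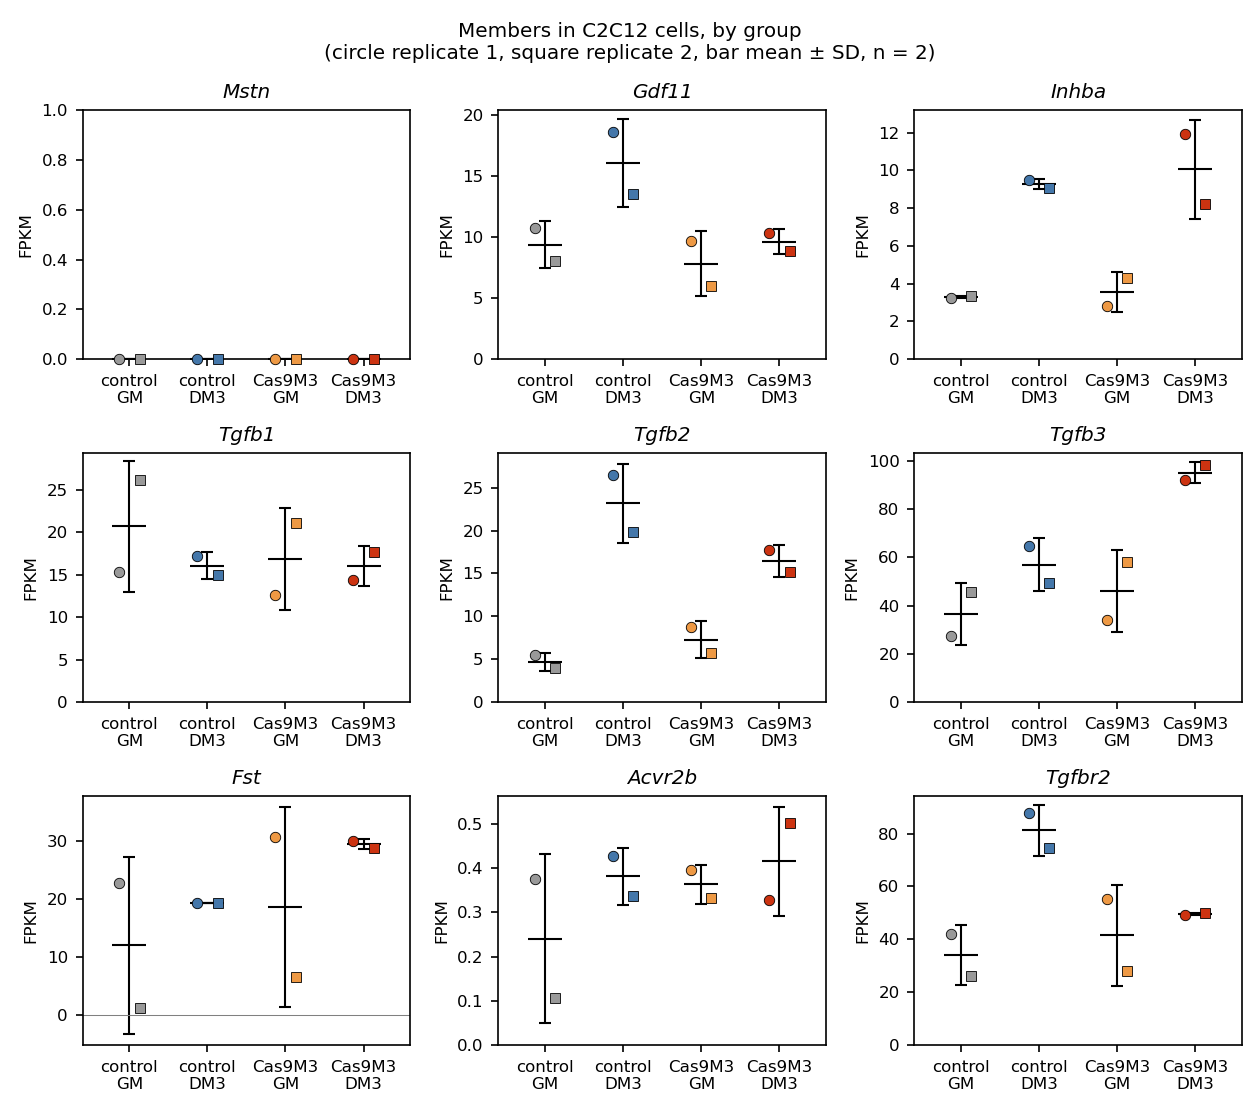
FPKM (vertical axes) of the 9 members in control and Cas9M3 C2C12 cells in GM and DM3 (horizontal axes), with circles for replicate 1, squares for replicate 2 and bars for mean ± SD (n = 2). Mstn was at 0 in all 8 libraries, and the libraries of a GM group lay far apart for Fst, at 22.9 and 1.31 FPKM in control cells.

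Of the 9 members, 7 passed the filter in C2C12 cells, and Mstn and Acvr2b did not. Mstn had 0 reads in all 8 libraries, which allows at most 0.0349 to 0.115 FPKM per library (3 reads, counting error only). Acvr2b had 0.105 to 0.503 FPKM, on 4 to 49 reads per library, with its lowest value in control GM replicate 2 and its highest in Cas9M3 DM3 replicate 2, and every group overlapped with the next. The other 5 ligands, Fst and Tgfbr2 were measured well above the filter.

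In control cells, differentiation went with higher Tgfb2. It had 5.45 and 3.97 FPKM in GM and 26.4 and 19.9 FPKM in DM3, with no overlap, as for 47.2% of all genes tested. In Cas9M3 cells it had 8.80 and 5.73 FPKM in GM and 17.7 and 15.1 FPKM in DM3, so the 4 groups did not overlap and followed the order control DM3, Cas9M3 DM3, Cas9M3 GM and control GM. Tgfb2 rose by 2.28 from GM to DM3 in control cells (SE 0.29, limma adjusted p = 0.032). It was the 1 of 7 tested members called there, against 1.14% of the 13824 genes tested. The call was lost in a fit of the control groups alone (limma adjusted p = 0.187). It was lost too without control GM replicate 2, the library with the highest share of ribosomal RNA repeats (2.05). The same held without either DM3 library of control cells and without either DM3 library of Cas9M3 cells. Apart from the fit without control GM replicate 2, 0 genes of the table were called in these fits, in which Tgfb2 had 2.07 to 2.48. In Cas9M3 cells the same difference was 1.19 (SE 0.29, limma adjusted p = 0.158).

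Inhba had 3.25 and 3.32 FPKM in control GM and 9.48 and 9.08 in control DM3 cells. It had 2.82 and 4.31 FPKM in Cas9M3 GM and 11.9 and 8.21 in Cas9M3 DM3 cells. Both DM3 groups lay above both GM groups, with a difference of 1.47 in control cells (SE 0.27, limma adjusted p = 0.072) and 1.48 in Cas9M3 cells (SE 0.27, limma adjusted p = 0.102). Without control GM replicate 1 the first was called (1.45, limma adjusted p = 0.034), in a fit that called 27.0% of all genes tested.

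Tgfbr2 had 41.9 and 25.9 FPKM in control GM and 87.9 and 74.4 in control DM3 cells. It had 55.1 and 28.0 FPKM in Cas9M3 GM and 49.3 and 49.8 in Cas9M3 DM3 cells. Control DM3 was above the other 3 groups. Cas9M3 DM3 was above control GM, and Cas9M3 GM overlapped with both. The difference between DM3 and GM in control cells was 1.29 (SE 0.37, limma adjusted p = 0.168), and it was called without control GM replicate 1 (1.64, limma adjusted p = 0.037), again against 27.0% of all genes.

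In Gdf11 too, control DM3 was the highest group. It had 10.7 and 8.06 FPKM in control GM, 18.6 and 13.5 in control DM3, 9.70 and 5.97 in Cas9M3 GM and 10.4 and 8.92 in Cas9M3 DM3 cells. The other 3 groups overlapped, and the difference of control DM3 from control GM was 0.77 (SE 0.30, limma adjusted p = 0.261). Tgfb1 had 12.6 to 26.2 FPKM over the 8 libraries, the 4 groups overlapped, and replicate 2 was above replicate 1 in both GM groups, at 26.2 against 15.3 and 21.1 against 12.6 FPKM.

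In Cas9M3 cells, 0 of 7 members were called between DM3 and GM by limma, against 0.0289% of all genes tested, and 3 (Inhba, Tgfb2 and Tgfb3) had an unadjusted p of at most 0.05. Tgfb3 had 27.6 and 45.7 FPKM in control GM, 64.7 and 49.3 in control DM3, 33.9 and 58.2 in Cas9M3 GM and 92.1 and 98.2 in Cas9M3 DM3 cells. Cas9M3 DM3 stood above the other 3 groups, and its difference from Cas9M3 GM was 1.09 (SE 0.35, limma adjusted p = 0.272).

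The knockdown itself was compared within each stage. In GM, 0 of 7 members were called by limma, against 0% of all genes tested, and 0 had an unadjusted p of at most 0.05. The libraries of the groups did not overlap for 1 of the 7 (Tgfb2), against 29.4% of all genes tested. Fst had 22.9 and 1.31 FPKM in control GM and 30.8 and 6.54 FPKM in Cas9M3 GM cells, so the libraries numbered 2 were the low ones in both groups. Within the libraries of the same number it was higher in Cas9M3 cells in both. Its difference was 1.33 (SE 1.30, limma adjusted p = 0.790), with an adjusted p of 0.555 by limma with the replicate number as a block. Tgfb2, Tgfb3 and Tgfbr2 were likewise higher in Cas9M3 GM in both same-numbered pairs, Tgfb1 and Gdf11 were lower in both, and Inhba was lower in one and higher in the other. With the block too, 0 of 7 members and 0 of all genes were called in GM. Leaving out 1 control GM library in the fit without the block breaks a pair, and the difference of Fst was then -0.68 without replicate 2 and 3.35 without replicate 1.

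In DM3, 0 of 7 members were called by limma, against 1.98% of all genes tested, and 0 had an unadjusted p of at most 0.05. The libraries of the groups did not overlap for 5 of the 7 (Fst, Gdf11, Tgfb2, Tgfb3 and Tgfbr2), against 63.5% of all genes tested. Fst had 19.3 and 19.4 FPKM in control DM3 and 30.1 and 28.9 FPKM in Cas9M3 DM3 cells, a difference of 0.61 (SE 1.30, limma adjusted p = 0.892). For Tgfb3, with both Cas9M3 DM3 libraries above both controls, the difference was 0.75 (SE 0.35, limma adjusted p = 0.352). Gdf11, Tgfbr2 and Tgfb2 were lower in both Cas9M3 DM3 libraries than in both controls, with differences of -0.72 (SE 0.30, limma adjusted p = 0.299), -0.71 (SE 0.37, limma adjusted p = 0.417) and -0.48 (SE 0.29, limma adjusted p = 0.485). In a fit of the 4 DM3 libraries alone, which leaves out the wide spread of the GM libraries, Fst, Tgfb3 and Tgfbr2 were called (limma adjusted p = 0.019, 0.038 and 0.024) with the same differences, against 21.6% of the 13079 genes tested there. For Inhba the interval of the difference in DM3 was -0.57 to 0.75 and for Tgfb1 it was -0.85 to 0.83, so changes within those bounds could not be told from none.

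**Figure D5:**
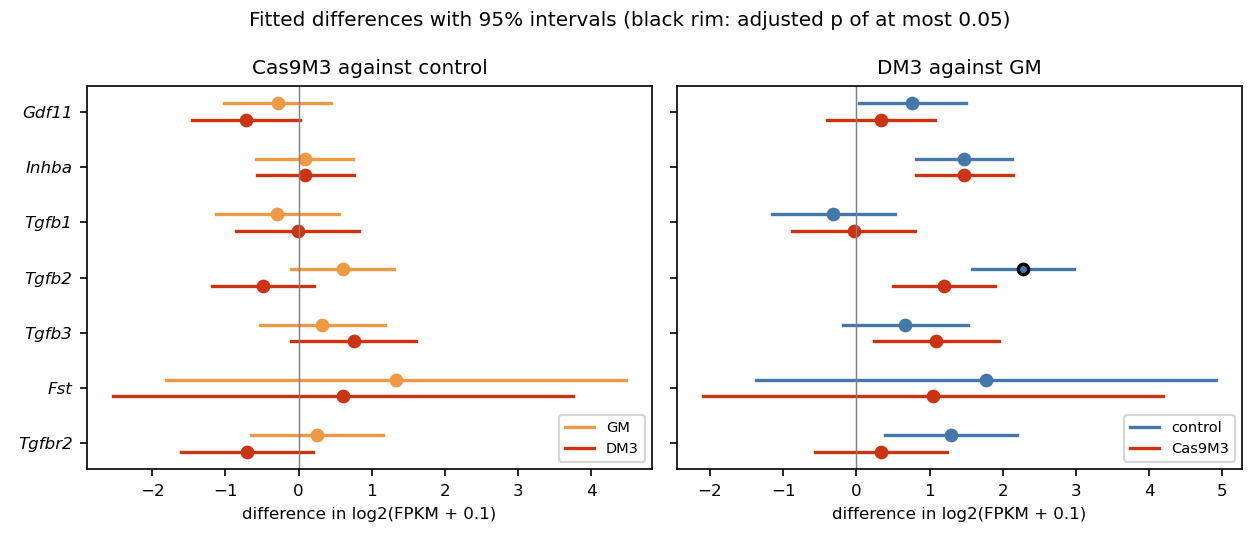
Difference in log2(FPKM + 0.1) with its 95% interval (horizontal axes) for the 7 tested members (vertical axis), for Cas9M3 against control in GM and DM3 (left) and for DM3 against GM in control and Cas9M3 cells (right). The black rim marks the 1 member called, Tgfb2 in control cells at 2.28, and the intervals of Fst are the widest.

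Whether the knockdown effect differed between the stages was tested in the same fit. It called 0 of 7 members by limma, against 0% of all genes tested, and 1 (Tgfb2) had an unadjusted p of at most 0.05. Tgfb2 was higher in Cas9M3 than in control cells in GM, by 0.60, and lower in DM3, and the difference of these effects was -1.08 (SE 0.41, limma adjusted p = 0.539). That of Tgfbr2 was -0.96 (SE 0.53, limma adjusted p = 0.660).

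Of the 47 listed pathway genes, 35 were tested in C2C12 cells. In GM 0 were called between Cas9M3 and control cells by limma, against 0% of all genes tested. In DM3 2 were called, against 1.98% of all genes tested, and both encode inhibitors of the pathway. Smad7, the inhibitory SMAD, had 3.03 and 2.35 FPKM in control DM3 and 8.96 and 8.61 FPKM in Cas9M3 DM3 cells, a rise of 1.68 (SE 0.24, limma adjusted p = 0.033). Bambi, a decoy receptor, had 0.0287 and 0.0355 FPKM in control DM3 and 0.806 and 1.19 FPKM in Cas9M3 DM3 cells, a rise of 3.04 (SE 0.46, limma adjusted p = 0.037). At so low a level the size rests on the pseudocount, with 0.95 at a pseudocount of 1 (limma adjusted p = 0.064) and 4.56 at 0.01. Without any 1 of the 4 DM3 libraries, where 0 genes of the table were called, Smad7 had 1.50 to 1.86 and Bambi 2.78 to 3.29 (limma adjusted p = 0.259 to 0.426). From GM to DM3 in control cells 1 was called, Smad3, which had 5.14 and 6.35 FPKM in GM and 25.5 and 21.3 FPKM in DM3, a rise of 2.01 (SE 0.23, limma adjusted p = 0.027), which was lost without either DM3 library of control cells (limma adjusted p = 0.347 and 0.224) or of Cas9M3 cells (limma adjusted p = 0.118 for both), where again 0 genes of the table were called. In Cas9M3 cells 0 of 35 were called between the stages by limma, and 0 for the difference of the knockdown effects. Over all genes tested, the shares called from GM to DM3 were 1.14% in control and 0.0289% in Cas9M3 cells, and 0% for the difference of the effects.

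The shares of the TGF-beta ligands differed between the groups of C2C12 cells. Tgfb1 held 31.6% and 34.5% of the summed FPKM in control GM, 22.8% and 24.8% in Cas9M3 GM, 15.9% and 17.8% in control DM3 and 11.6% and 13.5% in Cas9M3 DM3 cells, with no overlap between the groups. The FPKM of Tgfb1 itself overlapped between the groups, as given above. Tgfb2 held 24.4% and 23.6% in control DM3 and 14.3% and 11.5% in Cas9M3 DM3 cells. Tgfb3 held 59.7% and 58.6% in control DM3 and 74.1% and 75.0% in Cas9M3 DM3 cells. These shares are within a library, so the scaling between libraries does not enter, and they are given without a test.

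The genes whose levels followed each member most closely were listed for description, by Pearson's r of log2(FPKM + 0.1) over the libraries of a table among genes with a mean of at least 1 FPKM. Libraries of a day or group are shared by all genes, and the 2 highest of 12285 genes over 10 libraries are high by selection, so r carries no test. In muscle these were Gpcpd1 (0.975) and Ulk2 (0.974) for Mstn, Dpy19l1 (0.990) and Rab3d (0.990) for Tgfb1, Erbb3 (0.984) and Fggy (0.983) for Tgfb3, and Fut8 (0.920) and Jun (0.873) for Tgfb2. They were Gm5812 (0.905) and Gm13408 (0.875) for Gdf11, Ddah1 (0.983) and Rpl39-ps (0.981) for Fst, Dpy19l4 (0.967) and Calm3 (0.966) for Acvr2b, and Tnks1bp1 (0.982) and Adgra2 (0.978) for Tgfbr2. Both genes nearest to Gdf11 have predicted-gene names.

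In C2C12 cells, over 8 libraries and 11549 genes, the genes most like Tgfb3 were Ltbp3 (0.989) and Thbs1 (0.970), both of which are on the pathway list under latency and activation. They were Cavin2 (0.987) and Spry1 (0.986) for Tgfb2, Rtn3 (0.977) and Med19 (0.977) for Tgfb1, and Wdr37 (0.983) and Psme4 (0.980) for Gdf11. For Inhba they were Sppl2a (0.984) and Sft2d2 (0.981), for Fst Dnajb4 (0.989) and Mr1 (0.989), and for Tgfbr2 Ncbp3 (0.991) and E130308A19Rik (0.982).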

How the data were processed

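RNA-seq libraries of TA muscle (10) and C2C12 cells (8) entered this work. The authors mapped reads with HISAT2 to GRCm38, used featureCounts for gene counts and derived the deposited FPKM by means of DESeq2, and versions and strand handling are not given in the sources used here. Each table was scaled on its own, so values were compared within tables. Groups follow the labels. A gene needed 0.5 FPKM in 2 or more libraries. log2(FPKM + 0.1) was fitted in R 4.3.3 with limma 3.58.1 (lmFit, eBayes with trend), with every group of the table in the fit, and calls used a Benjamini-Hochberg adjusted p of 0.05. The fit was tested on simulated data for day 3 against day 0 and for Cas9M3 against control in DM3. Of 100 genes changed by a log2 fold of 2, it called 69 and 52, and of 100 changed by 4 it called 89 and 76. It also called 11 and 9 unchanged genes. Only these genes were changed, among 15558 and 13191, with noise drawn independently for each library. The real fit called 48.8% of genes on day 3, and C2C12 libraries of the same number deviated together. The simulated rates need not hold for the real fits. Smaller changes were not simulated.

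Implied reads came from the steps of low values, at least 96.4% (muscle) and 98.5% (C2C12) of which were whole within 0.02 with GENCODE M21 lengths. They entered no test. Libraries of the same replicate number deviated together in C2C12 cells (6 correlations of 0.278 to 0.680, all above 0.1), so the numbers pair them by this measure, with no reason given in the sources. Members, lists and tests were chosen with earlier results of these data known. Named were all members, Mettl3, in each comparison up to 3 called pathway genes with the largest rise and 3 with the largest fall where the higher group averaged 1 FPKM or more, and for each member the 2 genes most like it; 1 pathway gene that this rule names is not reported here. Other pathway genes and the markers named were chosen after values were seen. Alternatives were pseudocounts of 1 and 0.01, a filter of 1 FPKM or none, quantile normalization or median-ratio scaling, a fit of only the groups compared, a replicate block, a term for Xist-expressing libraries, a log2 fold change of at least 2, and each library left out. Median-ratio scaling left the fit nearly unchanged, with 8181 genes called on day 3 against day 0, beside 8179, so it tests little. Further calculations ran in Python 3.11.15 (numpy 2.4.6, pandas 2.3.3), with matplotlib 3.10.9 for the plots.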

Additional observations from a re-analysis of the deposited data

How the results depend on the processing

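The number of members called depended on the setting in 7 of the 12 comparisons and stayed at 0 under every alternative in the other 5. On day 3 against day 0 it was 6, became 2 with a log2 fold change of at least 2 as well and 4 with no filter or with the Xist term (Acvr2b and Tgfbr2 lost in both), and lay between 3 and 7 without 1 library. On day 5 against day 0 it was 2, became 4 with a pseudocount of 1, a filter of 1 FPKM, quantile normalization or the replicate block, and 0 with no filter, with the Xist term or with the fold threshold, and lay between 0 and 4 without 1 library. From day 1 to day 3 it was 4, became 1 with the Xist term or the fold threshold, and lay between 1 and 5 without 1 library. From day 3 to day 5 it was 1, became 0 with the Xist term or the fold threshold and 2 in a fit of those days alone, and lay between 0 and 1 without 1 library. From day 3 to day 10 it was 2, became 0 with the fold threshold and 3 (with Tgfbr2) with a pseudocount of 1, a filter of 1 FPKM, quantile normalization or the replicate block, and lay between 2 and 4 without 1 library, with 4 (Mstn, Tgfb1, Tgfb3 and Tgfbr2) without day 10 replicate 2. For the knockdown in DM3 it was 0 and became 3 in a fit of that stage alone, which called 21.6% of all genes, against 1.98%. From GM to DM3 in control cells it was 1, became 0 in a fit of those groups alone, and lay between 0 and 4 without 1 library, with 4 (Fst, Inhba, Tgfb2 and Tgfbr2) without control GM replicate 1, where 27.0% of all genes were called, against 1.14%, and 0 without any 1 DM3 library, where 0 of all genes were called. The share of all genes called changed with the setting too. On day 3 against day 0 it was 48.8%, with 26.3% under no filter and 34.9% with the Xist term. On day 5 against day 0 it was 25.5%, with 9.30% under no filter, 0% with the Xist term and 21.9% to 30.0% in the settings that called 4 members. From day 1 to day 3 it was 31.1%, with 8.17% under the Xist term. Some of these settings use fewer libraries or genes. The cause of these changes was not tested.

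No named difference of a member changed sign under another setting with all libraries. Without control GM replicate 2, which breaks a same-numbered pair, the difference of Fst turned to -0.68 for the knockdown in GM, with -0.68 to 3.35 over the libraries left out, and to -0.24 from GM to DM3 in control cells, with -0.24 to 3.79. Quantile normalization moved the median of all genes on day 3 by -0.12, and relative to it the called members kept their directions. In muscle, same-numbered libraries did not deviate together (10 correlations of -0.019 to 0.211), so the replicate block there rests on a number alone. In C2C12 cells the replicate block changed no call of a member. Few or no reads limit what can be said of Inhba in muscle and of Mstn and Acvr2b in C2C12 cells.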
